A study of Mus musculus with 3 samples.

Results

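The 9 genes described here encode parts of B cell receptor signalling, and were taken by symbol from the 24467 gene symbols of each count table. They are the receptor chains Cd79a and Cd79b, the inhibitory coreceptor Cd22, the kinases Lyn, Syk and Btk, the adaptor Blnk, the phospholipase Plcg2 and the lipid phosphatase Inpp5d. Their transcripts were counted in polyA RNA of 5TGM1.BRE, a mouse myeloma line labelled as bortezomib resistant and engraftable. The parental 5TGM1 line goes back to a spontaneous myeloma of C57Bl/KaLwRij mice, and bone marrow is given as the source of the samples. Bortezomib inhibits the proteasome. The cells were kept in 10 nM of the drug and were taken off it at least 72 h before RNA extraction. For replicate 1 the labels' cell type does not mention this culture. All 3 libraries belong to this 1 group, so levels are described within it and resistant cells are set against no others. Whether separate cultures were used is not stated, so each SD is the spread between these 3 samples and may be technical.

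In a B cell, membrane immunoglobulin binds antigen and the CD79A and CD79B chains, joined as a pair, carry the signal inward through tyrosine motifs in their tails. LYN phosphorylates these tyrosines, SYK docks on them and is activated, and the adaptor BLNK then gathers BTK and PLCG2, which cleaves a membrane lipid to release calcium. CD22 and the lipid phosphatase SHIP1, the product of Inpp5d, restrain the signal. When B cells become plasma cells, the cell type of myeloma, they turn from displaying immunoglobulin to secreting it.

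The libraries held 62303493, 45705994 and 59402218 gene counts for replicates 1, 2 and 3. Levels are in CPM, the counts of a gene per 1000000 counts of its library. Of 7 plasma cell markers, 6 were at 1 CPM or more in every library, with summed levels of 3260 to 3313 CPM, while Tnfrsf17 was at 0.582 ± 0.145 CPM (SD, n = 3). Of 8 B cell markers, Ms4a1, Fcer2a and Cd37 reached that limit, and Cr2 and Bcl6 had no counts. Most of their summed levels of 107 to 114 CPM came from Cd37, at 105 ± 2.28 CPM (SD, n = 3). Fcer2a was at 4.08 ± 2.43 CPM and Ms4a1 at 2.21 ± 0.304 CPM (SD, n = 3 for each). None of 9 T and NK cell markers and none of 8 myeloid markers reached 1 CPM in every library. Their summed levels were 0.219 to 0.482 CPM and 0.153 to 0.471 CPM, with Cd3e, Ncr1, S100a8 and S100a9 at 0 counts. Of 5 erythroid and megakaryocyte markers Itga2b reached it (summed levels 15.2 to 17.6 CPM, Pf4 at 0 counts), and of 6 stromal and endothelial markers Pecam1 did (5.76 to 6.41 CPM, Col1a2 at 0 counts). Replicate 3 stood apart from the other libraries along transcript length, as described last, and without it the same limit was reached by 7 of the 9 genes and by 59 of 100 other pathway genes, as with it.

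The promoters of the 2 near-silent genes, Cd79a and Cd22, are shown beside that of an expressed gene, Plcg2, with the stretch of the Blnk promoter that holds an octamer. The octamer is a short motif of B-lineage promoters bound by POU2F factors with their coactivator POU2AF1. Sequences are from RefSeq, build GRCm38.p6, on the strand of the gene. The first 3 are bases before the RefSeq transcript start that lie outside exons of GENCODE M21, and the capitals in the last mark the octamer. The Cd22 stretch lies inside the Cd22 gene of GENCODE M21, past the start annotated there, and so between its exons.
Cd79a, chr7:24897247-24897380, plus strand: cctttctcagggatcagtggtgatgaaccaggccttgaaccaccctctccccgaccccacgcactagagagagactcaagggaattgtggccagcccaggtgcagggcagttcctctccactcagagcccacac
Cd22, chr7:30879029-30879176, minus strand: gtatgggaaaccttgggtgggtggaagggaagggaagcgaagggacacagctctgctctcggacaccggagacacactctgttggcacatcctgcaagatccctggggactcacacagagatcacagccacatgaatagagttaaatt
Plcg2, chr8:117498025-117498274, plus strand: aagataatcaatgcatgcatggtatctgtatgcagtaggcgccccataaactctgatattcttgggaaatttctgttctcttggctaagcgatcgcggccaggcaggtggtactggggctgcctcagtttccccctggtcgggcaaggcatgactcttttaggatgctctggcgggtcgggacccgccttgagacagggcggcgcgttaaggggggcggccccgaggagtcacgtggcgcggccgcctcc
Blnk, chr19:40994333-40994362, minus strand: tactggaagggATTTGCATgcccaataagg

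The octamer ATGCAAAT was searched on both strands of windows of 300 bases, from 250 before to 50 after each RefSeq start. Of the 9 genes, 7 matched the promoter table, with 8 promoters since Syk has 2, and Cd79b and Lyn did not match. The Blnk window alone held an octamer, on the opposite strand as ATTTGCAT, beginning 130 bases before the start in a stretch that GENCODE M21 places in the first exon of Blnk. Of all 32851 promoters of the table, 1.74% held one. The window of Cd79a had a GC content of 58.3% with 8 CG dinucleotides, and that of Cd22 52.3% with 4. Before the RefSeq start, both windows include bases that GENCODE M21 places in exons. The Plcg2 window had 60.0% with 21, and 1 of the Syk windows 72.0% with 31. The counts were 7 for Blnk, 6 for Inpp5d, 3 for Btk and 2 for the other Syk promoter, beside a median of 7 over all promoters. Low and high counts of CG thus occurred among the expressed genes. These matches describe the sequence and are not evidence of binding.

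The receptor chains were expressed very unequally. Cd79b had 88.8, 87.8 and 99.4 CPM in replicates 1, 2 and 3, from 5533, 4014 and 5902 counts. Cd79a had 1, 4 and 5 counts in the same libraries, or 0.0161, 0.0875 and 0.0842 CPM. The partner chains of 1 receptor complex thus lay at a mean of 92.0 ± 6.39 CPM for Cd79b and 0.0626 ± 0.0403 CPM for Cd79a (SD, n = 3 for each). Pooled over libraries, Cd79a was at 0.0597 CPM with an exact 95% Poisson interval of 0.0286 to 0.110 CPM. Because reads copied by PCR are not separate molecules, the intervals here reflect counting error alone. Cd79a made up 0.0647% of the counts of the pair (exact binomial interval 0.0310 to 0.119%). Per kilobase of exon, Cd79b exceeded Cd79a 1573-fold in the pooled counts (interval 855 to 3281). Their union exon lengths are close, at 1457 bases for Cd79a and 1431 for Cd79b, so the ratio hardly depends on length. In GENCODE M21 (GRCm38), Cd79a is at chr7:24897381-24902197 on the plus strand and Cd79b at chr11:106311341-106314762 on the minus strand. The constant genes of immunoglobulin, which complete the receptor, were not analysed here.

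Cd22, a sialic acid-binding receptor that recruits phosphatases, was close to undetected. It had 0, 0 and 1 counts in replicates 1, 2 and 3, and the pooled level of 0.00597 CPM had an exact Poisson interval of 0.000151 to 0.0333 CPM. With no count in a library, a level of up to 3 counts remains possible, which is 0.0482 CPM in replicate 1 and 0.0656 CPM in replicate 2. The gene is at chr7:30865402-30880342, minus strand, and 9.5% of its exon bases overlap the antisense gene Gm29439. The related receptor Siglecg had 134, 97 and 128 counts, or 2.14 ± 0.0177 CPM (SD, n = 3). Per kilobase it exceeded Cd22 377-fold in the pooled counts, with an interval of 67.2 to 14917 that rests on the single Cd22 count. Of the pooled counts of Cd22 and Cd79b, Cd22 made up 0.00647% (exact binomial interval 0.000164 to 0.0361%). Its log2 ratio to Cd79b was -14.60 per kilobase with 0.5 added to each count and -16.30 with 0.1 added, so the added count sets this value.

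**Figure D1:**
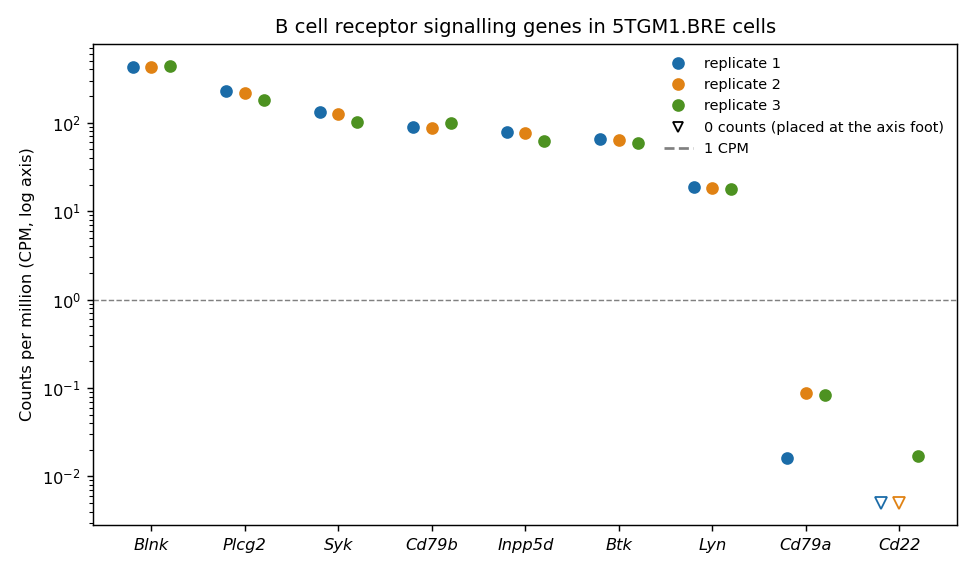
Level of each of the 9 genes in each library, in CPM on a log axis, ordered by mean. Points are libraries, coloured by replicate, open triangles at the axis foot are libraries with 0 counts and the dashed line is 1 CPM. Blnk is highest at 423 to 440 CPM, while Cd79a and Cd22 lie below 1 CPM in every library.

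Of the 9 genes, 7 were at 1 CPM or more in all 3 libraries, where 40.9% of all listed genes were. The count describes genes known in the B lineage and was not tested. The lowest of the 9 genes above the limit was Lyn at 18.2 CPM, and the highest below it was Cd79a at 0.0626 CPM.

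The kinases of the pathway were present at different levels. Syk had 131, 126 and 102 CPM, Btk 65.3, 64.1 and 58.7 CPM, and Lyn 18.6, 18.4 and 17.7 CPM in replicates 1, 2 and 3. Syk was lowest in replicate 3, and no library of 1 kinase overlapped those of another in CPM. Syk has the longest exons of the 9 genes, 9362 bases, so the order changed per length: Btk was at 19.9 ± 1.12, Syk at 12.8 ± 1.65 and Lyn at 4.48 ± 0.115 CPM per kilobase (SD, n = 3 for each). The log2 ratio of Btk to Syk was 0.65 ± 0.11 per kilobase (SD, n = 3), 0.15 with the longest transcript as the length and -0.93 without lengths, so the length taken sets its direction. Lyn lay below Syk by every length, with a log2 ratio of -1.50 ± 0.16 per kilobase (SD, n = 3). Syk is at chr13:52583173-52648792 (plus strand), Btk at chrX:134542336-134583570 (minus strand) and Lyn at chr4:3678115-3813122 (plus strand). Of the exon bases of Lyn, 6.09% overlap the noncoding gene Gm26857 on the other strand. Whether counting used strand is unknown, so reads of such pairs cannot be told apart.

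Lyn, a main Src family kinase of B cells, was a minor member of its family in these cells. Fyn, a family member also used by T cells, had 829, 791 and 764 CPM, far above every Lyn value. Per kilobase, Fyn made up 95.3 ± 0.151% of the summed family, Lyn 2.34 ± 0.0420% and Yes1 2.11 ± 0.113% (SD, n = 3 for each). Blk, a B cell kinase of the same family, had 0, 1 and 0 counts. Lck, the T cell member, had 11, 3 and 12 counts and Fgr 6, 3 and 2, while Src averaged 1.44 ± 0.0470 CPM (SD, n = 3). Lyn, set against the sum of the other members, had a log2 ratio of -5.38 ± 0.027 per kilobase (SD, n = 3), or a 41.6-fold lower level of Lyn.

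Syk and Btk were set against their own relatives. Zap70, which takes the place of Syk in T cells, had 0, 0 and 1 counts, and Syk exceeded it 6383-fold per kilobase in the pooled counts, with an interval of 1145 to 252122. Tec, which can act beside Btk, was at 81.7, 83.8 and 74.1 CPM and thus above Btk in every library. Per kilobase their log2 ratio, Btk over Tec, was -0.10 ± 0.034 (SD, n = 3), a 1.07-fold lower level of Btk. It was -0.35 without lengths and -0.28 with the longest transcript. Among other Tec kinases, Txk was at 0.184 ± 0.00882 CPM (SD, n = 3), and Bmx had 0 counts.

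The adaptor and its enzyme were the most abundant of the 9 genes by CPM. Blnk had 432, 423 and 440 CPM, the highest of the 9 in every library and rank 376 of 24467 genes by mean CPM. Plcg2 followed with 229, 215 and 180 CPM, at rank 1013. The libraries of these genes did not overlap, and Plcg2 was lowest in replicate 3. Lcp2, the adaptor that takes the role of Blnk in T cells, had 2, 1 and 2 counts, and Blnk exceeded it 10771-fold per kilobase in the pooled counts (interval 4615 to 33173). Plcg1, the paralog used by T cells, was at 19.9 ± 4.37 CPM (SD, n = 3). Plcg2 exceeded it by a log2 ratio of 4.28 ± 0.17 per kilobase (SD, n = 3), or 19.4-fold, and by 3.41 without lengths. Blnk is at chr19:40928927-40994535 (minus strand) and Plcg2 at chr8:117498291-117635142 (plus strand). In each of the families Syk and Zap70, Blnk and Lcp2, and Plcg2 and Plcg1, the form known from B cells was thus the higher one. For the Src kinases Lyn was below Fyn.

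Inpp5d, which encodes the phosphatase SHIP1 that removes a phosphate from the lipid made by PI3K, had 78.2, 76.5 and 62.5 CPM. It was lowest in replicate 3. Ptpn6, which encodes the tyrosine phosphatase SHP1, averaged 57.9 ± 0.568 CPM (SD, n = 3). Set against it, Inpp5d had a log2 ratio of -1.13 ± 0.17 per kilobase (SD, n = 3), -0.78 with the longest transcript and 0.31 without lengths, so here too the length sets the order. Inpp5d is at chr1:87620312-87720507 (plus strand). For each of the 11 ratios computed, a two-sided exact permutation of signs over n = 3 libraries gave p = 0.25, also after Benjamini-Hochberg adjustment. This is the smallest p that 3 libraries allow, so no ratio could pass 0.05.

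**Figure D2:**
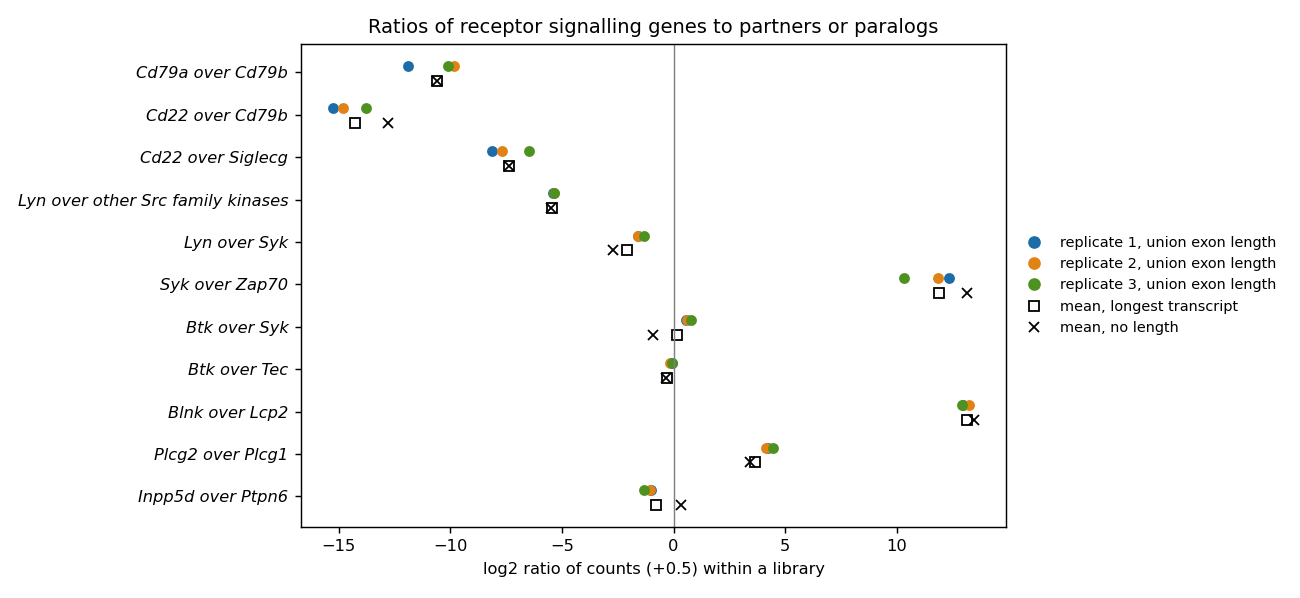
log2 ratios of counts within a library for 11 pairs of a signalling gene and a partner, paralog or family. Filled points are libraries per kilobase of union exon, squares are means with the longest transcript as length and crosses are means without length. Where Cd22 or Zap70 had 0 counts, the 0.5 added to each count sets the point. Cd79a over Cd79b lies at -11.88 to -9.83, and the mean of Btk over Syk and of Inpp5d over Ptpn6 lies on different sides of 0 with and without lengths.

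Per kilobase of union exon the order of the 9 genes was Blnk, Cd79b, Plcg2, Btk, Syk, Inpp5d, Lyn, Cd79a and Cd22. The means were 72.0 ± 1.42 for Blnk, 64.3 ± 4.47 for Cd79b, 48.4 ± 5.88 for Plcg2 and 9.52 ± 1.13 CPM per kilobase for Inpp5d (SD, n = 3 for each). From Blnk to Lyn, neighbours in this order did not overlap between libraries, but the steps differed in size. Cd79a and Cd22, with 10 and 1 counts in all, could not be ordered in single libraries. Blnk lay above Cd79b by a log2 difference of 0.17 ± 0.074 and Cd79b above Plcg2 by 0.41 ± 0.27, while Plcg2 lay above Btk by 1.28 ± 0.099 (SD, n = 3 for each). With the longest transcript as the length, Btk and Syk overlapped. In CPM without lengths, Inpp5d and Btk overlapped, as did Cd79a and Cd22. Within a gene, the highest library exceeded the lowest 1.04-fold for Blnk, 1.27-fold for Plcg2 and 1.28-fold for Syk in CPM. Since the order was read from these levels, its steps were not tested.

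Around the 9 genes, 100 others of the pathway were listed by role, and 59 of them (59.0%) were at 1 CPM or more in all libraries, against 40.9% of all listed genes. Their median was 6.10 CPM, against 72.4 CPM for the 9 genes and 0.0764 CPM for all listed genes. Of 3 stimulatory coreceptors, 1 passed: Cd81, a tetraspanin of the B cell surface, was at 368 ± 28.3 CPM (SD, n = 3). Cr2, the complement receptor, had 0 counts. Of 11 inhibitory receptors, 3 passed. Fcgr2b, the inhibitory receptor for IgG that recruits SHIP1, was at 124 ± 7.07 CPM, Pecam1 at 5.31 ± 0.442 CPM and Siglecg at the level given above (SD, n = 3 for each). The B cell inhibitory receptor Cd72 had 17, 8 and 16 counts. Of 14 adaptors, 9 passed, led by Grb2 at 130 ± 1.88 CPM, Crk at 115 ± 5.58 CPM and Crkl at 82.4 ± 9.59 CPM (SD, n = 3 for each), all 3 broadly used adaptors. Clnk and Stap1 had 0 counts, Lat, an adaptor of T cells, was at 0.657 ± 0.118 CPM and Pik3ap1, which links the receptor to PI3K, at 0.569 ± 0.0517 CPM (SD, n = 3 for each). Bank1, a B cell scaffold, was at 3.65 ± 0.387 CPM (SD, n = 3) and was chosen after its value was seen.

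Of 14 phosphatases and negative regulators, 10 passed. Ptprc, which encodes the CD45 phosphatase that activates Src kinases, was at 422 ± 51.4 CPM and Csk, which holds Src kinases inactive, at 158 ± 3.33 CPM (SD, n = 3 for each). Ptprj, Inppl1, Pag1 and Dok2 did not pass. Ptprj and Pag1 had 3 and 1 counts in all libraries together. Inppl1, the paralog of Inpp5d, had 7, 15 and 13 counts, and Dok2 had 25, 23 and 27.

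Downstream of Plcg2 most genes were expressed, with gaps at single genes. Of 15 genes of lipid and calcium signalling, 12 passed, led by the calcineurin genes Ppp3ca at 782 ± 20.2 CPM and Ppp3r1 at 210 ± 14.0 CPM and by Nfatc3 at 200.1 ± 31.1 CPM (SD, n = 3 for each). Itpr3, an inositol trisphosphate receptor, was at 23.7 ± 4.02 CPM (SD, n = 3). Its paralogs Itpr1 and Itpr2 had 3 and 38 counts in all libraries together, and Nfatc2 had 1. Of 6 exchange factors and small GTPases, 4 passed: Rac2 at 184 ± 7.71 CPM, Vav1 at 105 ± 2.62 CPM, Vav2 at 30.3 ± 3.78 CPM and Vav3 at 6.88 ± 0.683 CPM (SD, n = 3 for each). Rasgrp1 had 0, 1 and 0 counts, and Rasgrp3, which couples the PLCG2 product to Ras, had 9, 15 and 8. Of 7 genes leading to NF-kappaB, 6 passed, among them Map3k7 at 218 ± 17.5 CPM, Bcl10 at 78.1 ± 1.42 CPM and Traf6 at 61.4 ± 8.29 CPM (SD, n = 3 for each). The exception was Prkcb, a protein kinase C of B cells, with 1, 0 and 2 counts. Prkcd was at 54.0 ± 1.22 CPM (SD, n = 3).

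Of 9 genes known to be induced soon after receptor engagement, 3 passed (33.3%, beside 40.9% of all listed genes). These were Myc, Ccl3 and Ccl4, at 464 ± 7.70, 3.49 ± 0.427 and 1.29 ± 0.305 CPM (SD, n = 3 for each). Egr1 had 2, 4 and 6 counts, Egr2 had 6, 3 and 5, and Egr3 had 0. Nr4a1, a reporter gene of receptor signalling, was at 0.632 ± 0.188 CPM and Cd69 at 0.304 ± 0.0856 CPM (SD, n = 3 for each). No stimulated sample was measured, so inducibility was not tested. Of 9 transcription factors known to act on receptor genes, 6 passed, led by Pou2af1 at 1218 ± 36.7 CPM, Ikzf1 at 236 ± 27.5 CPM and Tcf3 at 139 ± 5.02 CPM (SD, n = 3 for each). Spi1, Pou2f2 and Ets1 also passed, at 44.2 ± 2.39, 8.19 ± 0.822 and 8.05 ± 0.574 CPM (SD, n = 3 for each). Of those that did not pass, Ebf1 had 1, 0 and 1 counts and Pax5 had 40, 20 and 5. Spib had 36, 35 and 37 counts. Whether these levels bear on Cd79a or Cd22 was not tested.

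**Figure D3:**
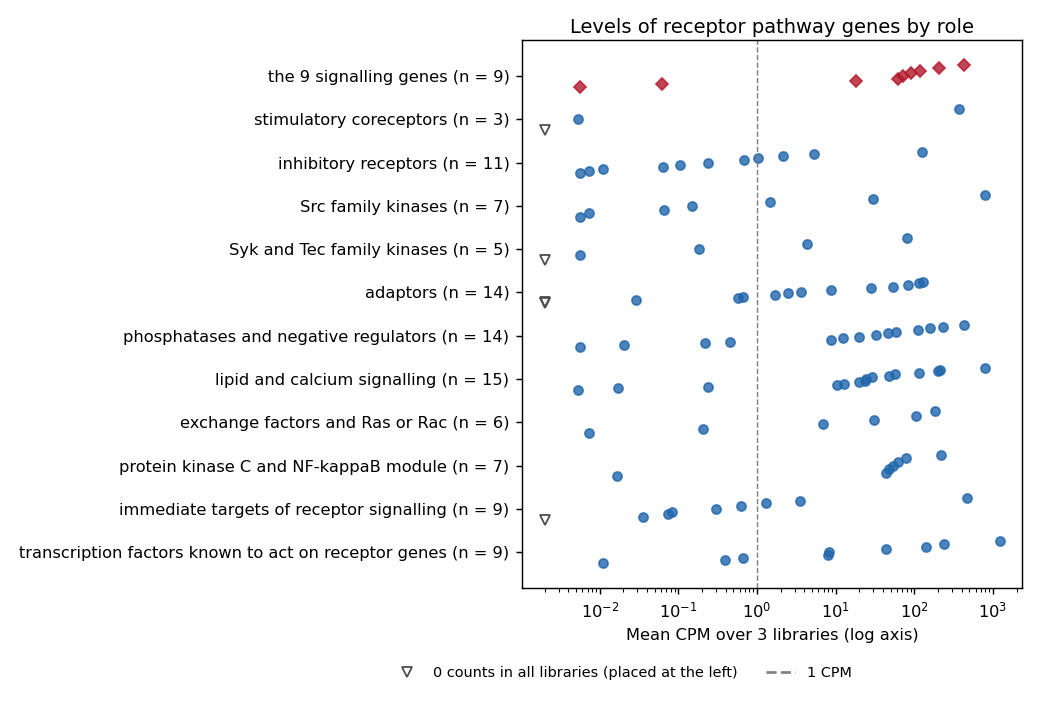
Mean CPM over 3 libraries, on a log axis, of the 9 signalling genes (diamonds) and of 100 other pathway genes (circles) by role. Open triangles at the left are genes with 0 counts in all libraries and the dashed line is 1 CPM. Every role holds genes below 1 CPM, and the highest circle is Pou2af1 at 1218 CPM.

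Replicate 3 stood apart from the other libraries, and some of the 9 genes had other levels there. Each library was set against the other 2 by edgeR's quasi-likelihood test with Benjamini-Hochberg adjustment at 0.05, on 11308 genes that passed a filter on low counts, 7 of the 9 among them. In replicate 3, 51.6% of all tested genes were called, 24.8% higher and 26.8% lower. Of these 7 genes, 1 was higher (Cd79b) and 4 were lower (Syk, Inpp5d, Plcg2 and Btk), counts that stand against a background where about as many genes differed as did not. In replicates 1 and 2 none of the 7 was called, also none at an unadjusted p under 0.05 and none by DESeq2, beside 0.0796 and 0.0531% of all tested genes. Such a test sets a single library, whose own spread is not measured, against 2 others with 1 residual degree of freedom. Its p-values compare these libraries, not conditions, and rest on the spread between the other 2, moderated over all genes. For replicates 1 and 2 the other 2 include replicate 3, and the SEs were larger. Plcg2 in replicate 1 had a log2 fold change of 0.20 with an SE of 0.185. Cd79b in replicate 3 had 0.20 with an SE of 0.040. The lack of calls in replicates 1 and 2 therefore does not show that these libraries agree.

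Cd79b was at 99.4 CPM in replicate 3 and at a mean of 88.3 CPM in replicates 1 and 2, a log2 fold change of 0.20 with an SE of 0.040 (edgeR adjusted p = 3.6e-06). Syk was at 102 CPM in replicate 3 against 128 CPM (log2 fold change -0.30, SE 0.041, edgeR adjusted p = 1.8e-12). Inpp5d was at 62.5 CPM there against 77.3 CPM (-0.28, SE 0.042, edgeR adjusted p = 5.9e-10). Plcg2 was at 180 CPM there against 222 CPM (-0.27, SE 0.041, edgeR adjusted p = 3.0e-10). Btk was at 58.7 CPM there against 64.7 CPM (-0.11, SE 0.043, edgeR adjusted p = 0.021), and DESeq2 did not call it (adjusted p = 0.24). Blnk and Lyn had log2 fold changes of 0.07 and -0.03 and were not called (edgeR adjusted p = 0.15 and 0.74).

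Transcript length moved with the difference between libraries. Across 10950 genes with a length, Spearman's rho between union exon length and the log2 fold change of replicate 3 was -0.589, and the median was 0.21 over the 2738 shortest genes and -0.19 over the 2738 longest. Cd79b, with the shortest exons of the 9 genes at 1431 bases, had the highest value of the signalling genes tested. Syk and Inpp5d, with exons of 9362 and 7602 bases, had the most negative values. Plcg2, with 4298 bases, was at -0.27, close to Inpp5d, while Blnk, with 5991 bases, was at 0.07. With the trend on length removed, 31.6% of genes were called, 15.9% higher and 15.7% lower, and Cd79b was at -0.03 (edgeR adjusted p = 0.65), so its rise was lost. Blnk then rose, at 0.17 (edgeR adjusted p = 0.0033). Syk, Inpp5d, Plcg2 and Btk were still lower in replicate 3, at -0.12, -0.13, -0.26 and -0.18 (edgeR adjusted p = 0.029, 0.019, 0.00022 and 0.0035). Of the 100 other pathway genes, 70 were tested, with a median log2 fold change of -0.05 in replicate 3 beside 0.01 over all tested genes. With the length trend removed, their median was -0.03 beside 0.01. Pax5, which was not tested, had 0.642, 0.438 and 0.0842 CPM in replicates 1, 2 and 3. Of the 70 tested genes the most affected was Cbl, a ubiquitin ligase that limits receptor signalling. Cbl was at 4.38 CPM in replicate 3 against 10.8 and 10.6 CPM in replicates 1 and 2. Its log2 fold change was -1.26 with an SE of 0.11 (edgeR adjusted p = 1.4e-30) and -1.03 with the trend removed, and it was chosen after its value was seen. What sets replicate 3 apart was not tested.

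**Figure D4:**
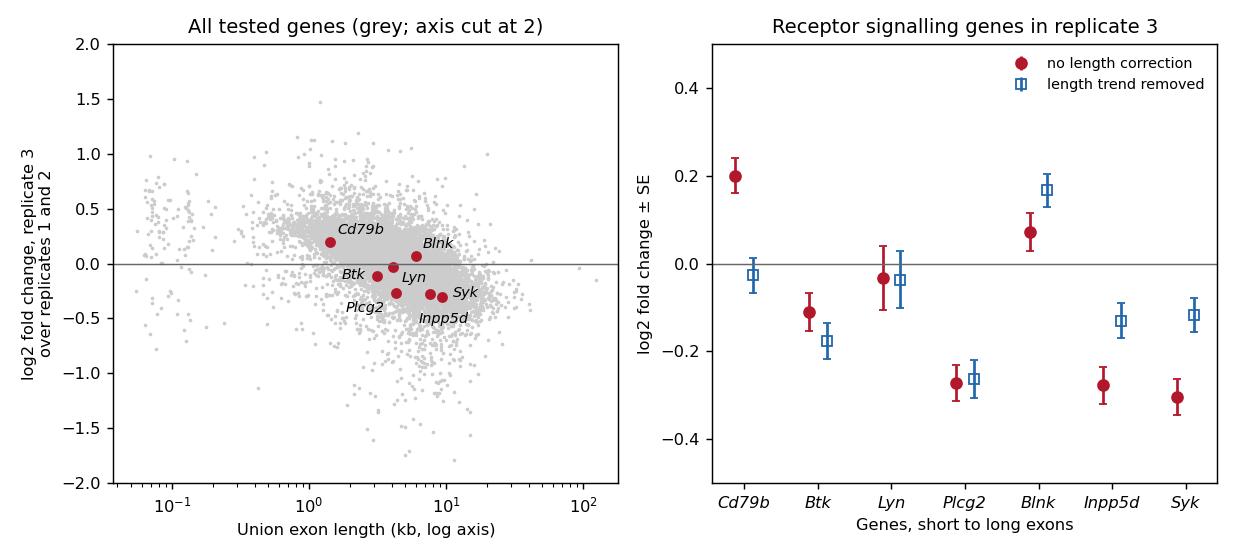
Left, log2 fold change of replicate 3 over replicates 1 and 2 against union exon length (log axis) for all tested genes with a length (grey) and the 7 tested signalling genes (red). Right, these 7 genes from short to long exons, with SE bars, without length correction (red circles) and with the length trend removed (blue squares). Cd79b moves from 0.20 to -0.03 when the trend is removed, while Plcg2 stays near -0.27.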

How the data were processed

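Each sample has 1 deposited table of unnormalized counts by gene symbol. The submitters' processing notes name bcl2fastq, cutadapt 4.2, STAR and the build mm10. Which program counted the reads, with what annotation and strand setting, is not given in the sources used here. Counts were divided by library totals to give CPM. Lengths and positions came from GENCODE M21 (GRCm38). Ratios used counts plus 0.5 per kilobase of union exon. Libraries were compared in R 4.3.3 by edgeR 4.0.16 (TMM factors, genes kept by filterByExpr). Simulated counts on which this fit was tried held no length trend, so they do not bear on the calls of replicate 3. The SE is the fold change over the square root of F. Alternatives were RLE or no scaling, no filter, DESeq2 1.42.0, loess removal of the length trend (span 0.3), other lengths, pseudocounts and limits, and leaving out replicates. Python 3.11.15 with SciPy 1.17.1 did the rest. Members and lists were chosen with earlier results of these data known. Named genes are the 9 members, the ratios' genes, each list's 3 highest and up to 3 at 0 counts, and all genes of a list past or short of the limit where these are at most 5. Some genes that this rule names are not reported here. Any other gene was picked with its values in view. Genes of a like pattern were not sought, since 3 libraries of 1 group hold no pattern over conditions. Protein motifs were not searched. The labels' cell type of replicate 1 does not mention culture in bortezomib, while its growth protocol does. Its title names the cells as bortezomib resistant and does not mention culture in the drug.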

Additional observations from a re-analysis of the deposited data

How the results depend on the processing

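No paired analysis was possible because all samples form 1 group. Without lengths, the log2 ratio of Btk to Syk turned to -0.93 and that of Inpp5d to Ptpn6 to 0.31, since the exons of the paired genes differ in length. Genes called in replicates 1, 2 and 3 numbered 9, 6 and 5834 with edgeR. They numbered 1, 1 and 3023 with DESeq2, and 4, 2 and 3456 with the length trend removed. With the trend removed, the log2 fold change of Cd79b turned to 0.059 in replicate 1 and -0.027 in replicate 3. Without scaling, that of Blnk in replicate 1, which was not called, turned to 0.0014. The cause of the changes other than those without lengths was not tested. A limit of 0.5 or 5 CPM, TMM library sizes and leaving out any replicate gave 7 of 9 genes over the limit. Of the 100 other pathway genes, 59 passed at 1 CPM, 64 at 0.5 CPM and 50 at 5 CPM. The share of all listed genes is not given at 0.5 or 5 CPM. Leaving out replicates gave log2 ratios with the direction of all 3 libraries for the 11 ratios. Leaving out a library from a comparison of libraries left no residual degrees of freedom, so only fold changes were computed. Depth limits Cd79a, Cd22, Zap70 and Lcp2, whose ratios rest on 10 or fewer counts.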
